A study of Mus musculus with 12 samples.

Results

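The LPS response of wild-type mouse liver was read from 8 of the 12 arrays of the series. The 4 arrays labelled as liver of WT mice given LPS were compared with the 4 arrays labelled as untreated WT liver, over all 19938 genes that have a probe set with 1 gene symbol. LPS (lipopolysaccharide) is the outer-membrane glycolipid of Gram-negative bacteria, and it was given at 1 µg/kg. All mice were male, of the C57Bl/6 background (C57Bl6/J in the source labels), kept on a light-dark cycle with free access to chow. The WT groups carried no engineered allele. The other 4 arrays, of LPS-treated mice with the Nfkb S534A knock-in, entered the fit only to estimate the spread. The labels give neither the time between LPS and collection nor the age of the mice, and they do not say that each array is a separate animal, so p-values measure the spread between arrays.

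LPS that reaches the liver is sensed by resident macrophages, sinusoidal endothelium and hepatocytes, and interferon, NF-kB and acute phase genes form the best known part of the answer. Hepatocytes also carry most of the body's intermediary metabolism, and endotoxin is known to shift their fuel use, amino acid handling, iron handling and drug conjugation. Leukocytes that enter the tissue and endothelial cells that change state add their own transcripts to the bulk RNA. Fewer cells of a type and less RNA per cell cannot be told apart in such samples. The interferon, NF-kB, chemokine, cytokine and acute phase lists were therefore set aside, and the rest of the response is described here by programme. Lists can share genes, and some set-aside genes, among them Cmpk2 and Eif2ak2, are also members of programme lists and are counted there.

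Several arrays stood apart before any comparison was made. Untreated arrays 1 and 3 differed from untreated arrays 2 and 4 in clock-controlled genes: Dbp, a transcription factor of the clock output, measured 8.14, 11.19, 7.59 and 11.39 on untreated arrays 1 to 4. The deubiquitinase Usp2 measured 6.94, 10.96, 7.01 and 10.73 on the same arrays and 6.91 to 7.33 on the LPS arrays. Results are therefore given where needed against arrays 1 and 3 only and against arrays 2 and 4 only. Exocrine pancreas transcripts were high on LPS array 2 and weaker on LPS array 3, where the pancreatic enzyme Cpa1 measured 10.10 and 7.54, against 5.54 to 6.39 on the other WT arrays. Fits without the pancreas-bearing arrays leave out these 2 WT arrays and 1 knock-in array. The untreated arrays carry titles of another scheme than the LPS arrays, so a difference in handling and the treatment cannot be told apart. Hepatocyte identity was clear: albumin (Alb) measured 13.97 to 14.04 on the 8 arrays, and the mean of 13 hepatocyte markers was 13.10 to 13.16 untreated and 13.14 to 13.21 after LPS. These markers include Fga, a fibrinogen chain that rose by 0.97. The median difference of the 13 was -0.06, with 6 above and 7 below 0.

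Of the 19938 genes, 1863 (9.34%) were higher and 3120 (15.6%) lower after LPS at limma's adjusted p under 0.05, and the median difference over all genes was 0.02 on the log2 scale. Rises were fewer but larger: 417 genes (2.09%) rose and 205 genes (1.03%) fell at least 2-fold. Outside the set-aside lists and their gene families, 1595 genes were higher and 3107 lower, 244 and 205 of them at least 2-fold. Bright genes were called lower more often. Among the 3878 genes with a mean above log2 9, 27.9% were lower and 17.5% higher, and their median difference was -0.09, or -0.05 without LPS array 2. Olfactory receptor genes, which liver does not use, gave a median level of 4.63, a median rise of 0.07 and 54 of 1027 genes (5.26%) called higher, or 24 without LPS array 2 (median 0.05), so a rise of this size was also seen in genes that liver does not use. Called with all 4 untreated arrays, with arrays 1 and 3 only and with arrays 2 and 4 only were 1120 higher genes (5.62%) and 1718 lower genes (8.62%); these are named below as called in all 3 fits. Without the 3 pancreas-bearing arrays, which leaves 9 arrays, 1482 genes (7.43%) were higher and 1745 (8.75%) lower, and this is called the pancreas-free fit below. The name refers only to the arrays left out, and a weaker pancreas signal remained. LPS array 1, which was kept, had a pancreas marker mean of 5.982, against 5.555 to 5.882 on the untreated arrays. The pancreatic enzyme Ctrl measured 7.17 on it, against 6.08 to 6.44 untreated.

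**Figure D1:**
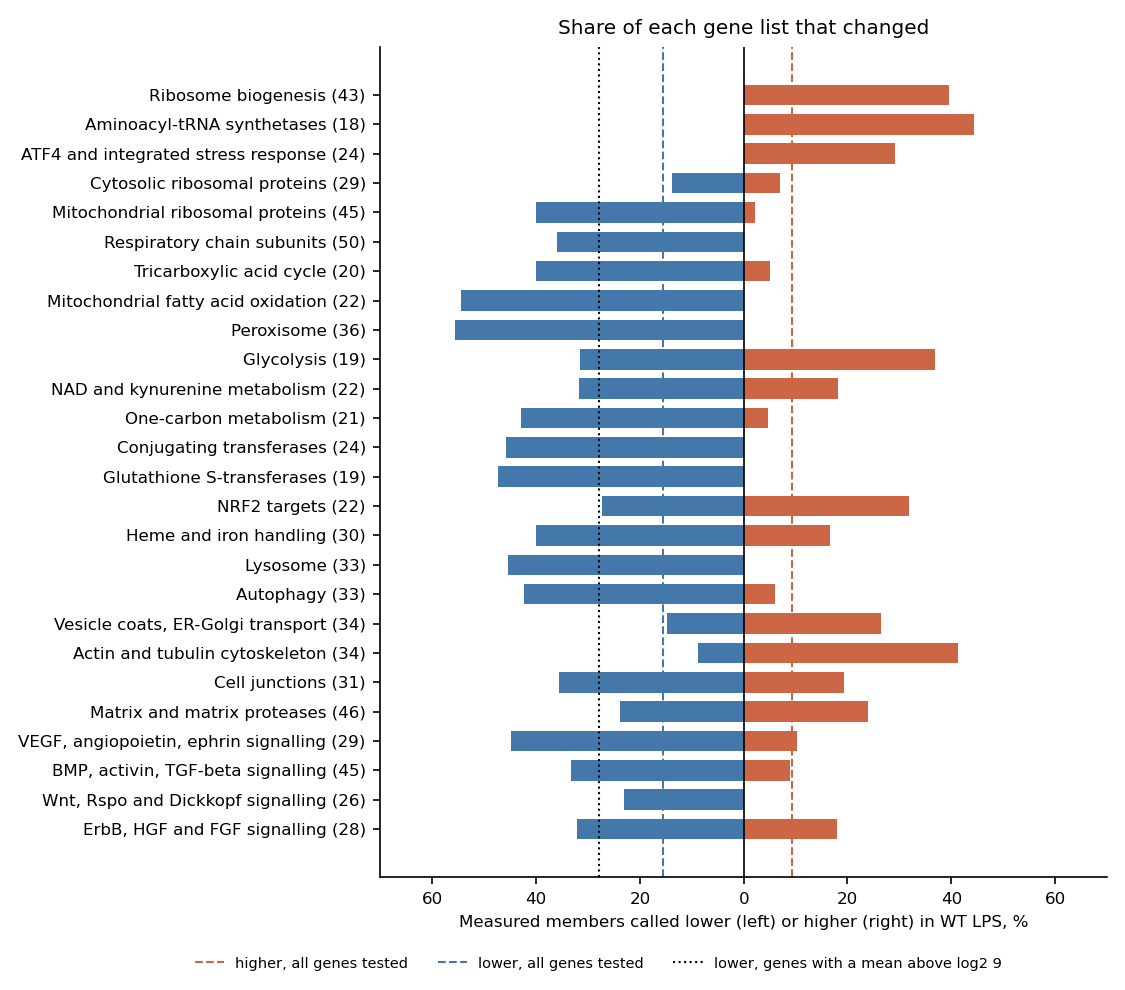
Share of 26 programme lists called higher (right, red) or lower (left, blue) in WT LPS against WT untreated liver, in percent of measured members, whose number is in brackets. Dashed lines mark the shares over all 19938 genes (9.34% higher, 15.6% lower) and the dotted line the 27.9% lower among genes with a mean above log2 9. Aminoacyl-tRNA synthetases, ribosome biogenesis and the cytoskeleton lie furthest to the right of these lists, and the peroxisome and fatty acid oxidation lists furthest to the left.

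A pair of DNA patterns bear on the lists that follow, and promoters from RefSeq (mouse build GRCm38.p6, windows of 300 bases spanning each start) were available for 15614 of the tested genes. TGATGNAA, the core of the element bound by ATF4 with a C/EBP partner, was found on either strand, in any window of a gene, in 3.62% of these genes, in 8 of 23 members of the ATF4 list (34.8%) and in 4 of 11 aminoacyl-tRNA synthetases (36.4%). CACGTG, the E-box bound by MYC, clock and TFE proteins, was found in 9.5% of all genes, in 10 of 38 ribosome biogenesis genes (26.3%), in 5 of 17 clock genes (29.4%) and in 11 of 28 lysosome genes (39.3%); the lysosome list was added to this scan after the results were seen. Of the members with the match, 3 of 8 on the ATF4 list, 1 of 4 synthetases and 6 of 10 ribosome biogenesis genes were higher and none lower. Of 5 clock genes with the E-box 1 was lower, and of 11 such lysosome genes 6 were lower, with none higher on either list. Matches are descriptions, not sites. The stretches below lie upstream of the start of genes that changed, read 5′ to 3′ on the gene's strand with the match in capitals. Those of Atf3 and Nupr1 show TGATGNAA, which stands there as TTGCATCA, its reading on the other strand. The others are shown because the same E-box letters stand before a gene that rose (Nop2) and before genes that fell (Ctsd, Ctsa). The rise of Nop2 (0.48 ± 0.14, adjusted p = 0.0274) was not called when LPS array 1, 3 or 4 or untreated array 1 or 3 was left out (0.33 to 0.49).
Atf3, chr1:191183410-191183469, minus strand: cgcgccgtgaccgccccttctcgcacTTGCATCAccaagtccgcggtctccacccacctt
Nupr1, chr7:126625547-126625606, minus strand: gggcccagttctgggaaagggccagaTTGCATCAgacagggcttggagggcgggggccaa
Nop2, chr6:125131797-125131854, plus strand: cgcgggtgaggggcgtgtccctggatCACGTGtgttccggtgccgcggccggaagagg
Ctsd, chr7:142387894-142387951, minus strand: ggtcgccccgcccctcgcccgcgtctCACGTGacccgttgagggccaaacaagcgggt
Ctsa, chr2:164833735-164833772, plus strand: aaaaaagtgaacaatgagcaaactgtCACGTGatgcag
The other patterns searched were found in few members. TTCNNNGAA, the STAT element, was in 20 of 182 risen list members (11%) against 8.99% of all genes. TGACGTCA, the cAMP response element, was in 2 of 24 immediate early genes (8.33%) against 2.72%, and TTATGTAA, the D-box, in 1 of 17 clock genes (5.88%) against 0.999%.

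The largest rises outside the set-aside lists were led by Calhm6 and Acod1. Calhm6, a member of the calcium homeostasis modulator channel family, measured 6.20, 5.69, 5.94 and 5.64 on the untreated arrays and 10.39, 10.37, 9.90 and 10.25 on the LPS arrays, a rise of 4.36 ± 0.13 (SE) on the log2 scale (20.5-fold, limma adjusted p = 7.28e-11). Acod1, which makes the antimicrobial metabolite itaconate from a Krebs cycle intermediate, measured 6.15, 6.06, 6.19 and 5.73 untreated and 10.23, 10.18, 10.01 and 10.31 after LPS, a 17.7-fold rise (log2 4.15 ± 0.10, adjusted p = 1.78e-11). In both, the groups lay more than 3 log2 units apart with no overlap. Some of the 15 genes are also known to answer interferon (Calhm6, Plscr1, Samhd1), although they were not on the interferon list.

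Metabolite-sensing receptors changed in opposite directions. Hcar2, a receptor for beta-hydroxybutyrate and nicotinic acid, rose by 3.01 ± 0.09, and Gpr84, a receptor for medium-chain fatty acids on myeloid cells, by 2.36 ± 0.15 on the log2 scale. Sucnr1, the succinate receptor, measured 9.38, 9.13, 9.03 and 9.18 untreated and 6.63, 6.16, 6.56 and 6.52 after LPS and fell by 2.71 ± 0.14 (adjusted p = 2.43e-08). Every LPS array lay below every untreated one. Of 23 measured metabolite and lipid receptors, 6 were higher and 2 lower (median 0.15), with 1 lower without untreated array 1 or 4 or LPS array 2 or 3, and C5ar1, the receptor of the complement fragment C5a, rose 4.01-fold.

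The other large rises fell into membrane transport, nucleotide control, transcription and matrix cleavage. Slc10a6, a carrier of sulfated steroids, measured 5.50, 5.89, 5.91 and 5.94 untreated and 9.29, 8.46, 8.65 and 8.65 after LPS, a 7.74-fold rise (adjusted p = 1.94e-08). The magnesium carrier Slc41a2 rose 5.19-fold and the phospholipid scramblase Plscr1 7.24-fold. Samhd1, which hydrolyses deoxynucleotides, rose 6.15-fold. Spic, the transcription factor of iron-recycling macrophages, rose from 5.68, 5.57, 5.83 and 6.23 to 8.58, 7.89, 8.42 and 8.82, and Zbtb16, a zinc finger repressor known as a glucocorticoid target, from 8.56, 8.66, 8.50 and 8.63 to 11.14, 10.87, 11.16 and 10.71. The collagenase Mmp13 (6.39-fold), the platelet and leukocyte protein pleckstrin (Plek, 6.72-fold), Crybg1 (5.65-fold), the ring finger gene Rnf225 (8.17-fold) and the complement-region transcript D17H6S56E-5 (log2 difference 3.90) completed the 15. Their groups did not overlap, which the naming rule required.

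**Figure D2:**
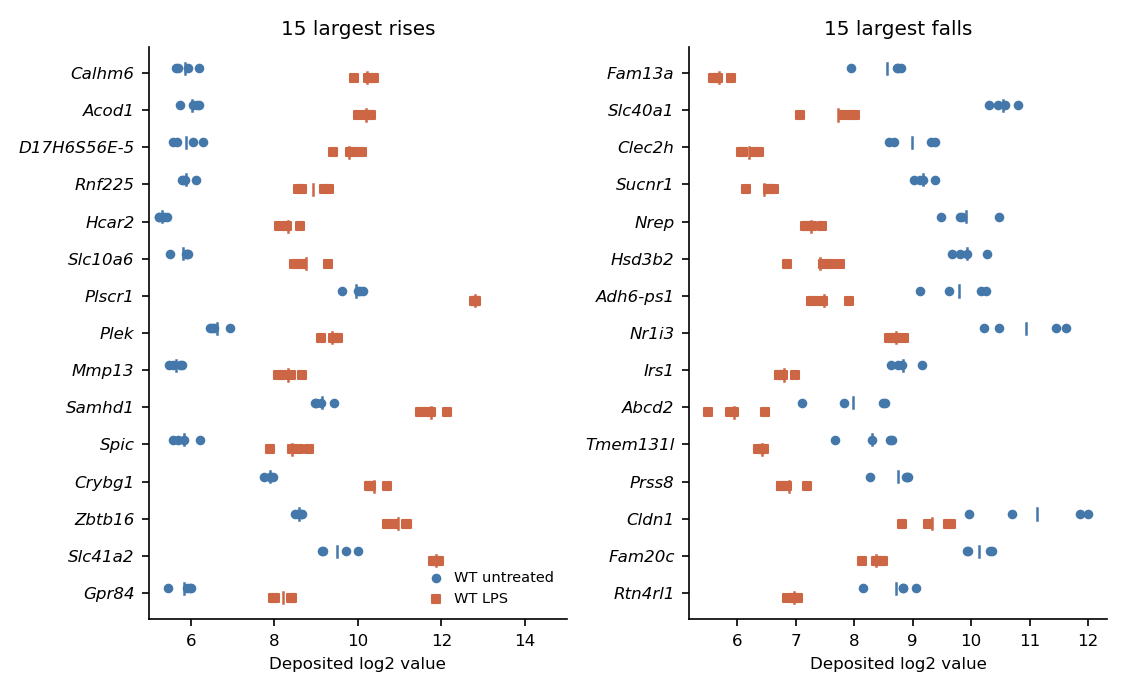
Deposited log2 values of the 15 largest rises and 15 largest falls outside the set-aside lists, on each of 4 WT untreated arrays (blue circles) and 4 WT LPS arrays (red squares), with group means as short lines. The groups are separate for all 30 genes, as the choice required, and the untreated arrays of Nr1i3, Cldn1 and Abcd2 are widely spread.

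The 15 largest falls included an insulin signalling adaptor, an iron exporter, a peroxisomal importer and a xenobiotic receptor. Fam13a, a gene linked to fat storage, measured 7.95, 8.73, 8.81 and 8.75 untreated and 5.60, 5.59, 5.89 and 5.68 after LPS and fell by 2.87 ± 0.16 (7.31-fold, adjusted p = 3.16e-08). Irs1, the adaptor that couples the insulin receptor to its kinase cascade, fell from 8.63, 8.83, 8.74 and 9.16 to 6.72, 6.71, 7.00 and 6.79, 4.10-fold (adjusted p = 2.98e-08). No LPS array reached the level of any untreated array for either gene. Abcd2, a peroxisomal importer of fatty acyl-CoA, fell 4.10-fold with a wide untreated spread (7.10, 7.83, 8.49 and 8.53). The iron exporter Slc40a1 fell 7.05-fold, Fam20c, the kinase of secreted proteins, 3.41-fold, and the channel-activating protease Prss8 3.62-fold.

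Nr1i3, the xenobiotic receptor CAR, measured 10.22, 11.46, 10.47 and 11.62 untreated and 8.67, 8.61, 8.86 and 8.73 after LPS and fell by 2.23 ± 0.28. Cldn1, the tight junction claudin, measured 11.86, 9.97, 12.00 and 10.70 and 9.65, 8.82, 9.26 and 9.61 and fell by 1.80 ± 0.37 (adjusted p = 0.00322). The untreated pairs split in both, arrays 2 and 4 being the higher for Nr1i3 and the lower for Cldn1, and without the pancreas-bearing arrays Cldn1 gave -1.50 (adjusted p = 0.0681). Clec2h (6.91-fold), Nrep (6.23-fold), Tmem131l (3.70-fold), Rtn4rl1 (3.38-fold), the alcohol dehydrogenase pseudogene Adh6-ps1 (4.91-fold) and the steroid dehydrogenase Hsd3b2 (5.66-fold) were the others. Hsd3b2 and Adh6-ps1 have near-identical relatives, so their probe sets may share signal with them.

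Genes that charge transfer RNAs were among those that rose. Of 18 measured cytosolic aminoacyl-tRNA synthetases, which join each amino acid to its transfer RNA, 8 were higher and none lower. This share of 44.4% stood against 9.34% of all genes and 17.5% of genes with a mean above log2 9, as 15 of the 18 had. The median difference was 0.19, and all 8 were called in all 3 fits and 6 without the pancreas-bearing arrays. Wars, the tryptophan enzyme and a known interferon-gamma target, measured 9.17, 8.65, 9.01 and 8.73 untreated and 10.27, 9.98, 10.16 and 10.19 after LPS, a 2.40-fold rise (adjusted p = 9.37e-06). Rars, for arginine, measured 10.16, 9.89, 10.24 and 9.83 untreated and 10.84 to 11.16 after LPS, a 1.95-fold rise (adjusted p = 2.4e-05). Both groups were separate for both genes. Vars, for valine, rose 1.70-fold, Kars, for lysine, 1.46-fold, Yars, for tyrosine, 1.40-fold and Nars, for asparagine, 1.37-fold. The serine enzyme Sars gave -0.20 ± 0.09 (adjusted p = 0.138), the single negative difference on the list.

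Ribosome biogenesis factors held more rises than falls, and few ribosomal proteins were called. Of 43 measured factors that transcribe, cut, modify and assemble ribosomal RNA, 17 were higher and none lower (39.5%, median 0.19), 9 were higher in all 3 fits and 14 without the pancreas-bearing arrays. Tsr1, needed for small-subunit maturation, measured 7.81, 8.00, 7.92 and 8.18 untreated and 9.21, 8.79, 9.03 and 9.12 after LPS, a 2.09-fold rise (adjusted p = 3.09e-05). Nop58, a core protein of box C/D RNA particles, measured 6.67, 7.23, 6.70 and 7.32 and 8.52, 7.56, 8.38 and 8.54, a 2.41-fold rise (adjusted p = 0.00172). Untreated arrays 2 and 4 were the nearer to LPS for Nop58, and against those arrays alone 10 members were higher and 2 lower. Wdr43 (2.10-fold), the nuclear export factor Ltv1 (1.56-fold) and the RNA helicase Ddx21 (1.63-fold) rose too.

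Of 29 cytosolic ribosomal proteins, 2 were higher and 4 lower, with a median of -0.04, and the pancreas-free fit gave 1 and 2. The higher count was 1 without untreated array 1, 3 or 4 or LPS array 1 or 3. Rps20 rose by 0.23 and Rpl10a fell by 0.24 on the log2 scale. Initiation factors were split, with 4 of 26 higher and 5 lower, or 3 lower without untreated array 4 or in the pancreas-free fit. Eif1a, which helps scan for the start codon, measured 8.62, 8.17, 8.41 and 8.20 untreated and 10.04, 9.67, 9.97 and 9.72 after LPS (2.83-fold, adjusted p = 1.48e-06), and Eif6, which keeps the subunits apart, rose 1.64-fold. Of 24 members of the ATF4 list, the programme of amino acid shortage and eIF2 phosphorylation, 7 were higher and none lower (median 0.13), or 4 higher when untreated array 2 or 3 or LPS array 1, 3 or 4 was left out. The kinase Eif2ak2, which double-stranded RNA and interferon also induce, rose 7.89-fold. Atf3 measured 7.54, 8.72, 6.74 and 7.27 untreated and 9.25, 8.84, 8.42 and 8.96 after LPS, with overlapping groups, and against untreated arrays 2 and 4 alone it gave 0.87 (adjusted p = 0.0738). Nupr1 rose 1.65-fold.

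Protein decay and export genes gave smaller shifts. Of 31 constitutive proteasome genes, 5 were higher and none lower (16.1% higher), led by Psma5 (1.57-fold) and Psmd7 (1.36-fold). Bright members, with a mean above log2 9, made up 30 of the 31, and 17.5% of all such genes were higher. Of 34 genes of vesicle coats and ER-Golgi transport, 9 were higher and 5 lower, or 3 to 5 higher without untreated array 2 or 4 or LPS array 1 or 4. Without LPS array 2, 11 were higher and 2 lower, 2 to 3 were lower without untreated array 2 or 4 or LPS array 3 or 4, and the pancreas-free fit gave 6 and 1. Arf4, a small GTPase of the Golgi, rose 1.62-fold and Copb2, a coat protein, 1.29-fold. Srpr, the signal recognition particle receptor, rose 1.36-fold. Of 33 Golgi glycosyltransferases, 7 were higher and 5 lower, 3 lower in the pancreas-free fit. St6gal1, which adds the terminal sialic acid to plasma glycoproteins, measured 9.68, 9.73, 9.86 and 9.96 untreated and 10.67, 10.60, 10.75 and 10.68 after LPS, and B4galt1, which adds the galactose beneath it, rose 1.75-fold. Of 24 heat shock genes, 4 were higher (16.7%) and 2 lower (1 lower without LPS array 1 or 2 and in the pancreas-free fit). Bright members made up 16 of the 24, and 17.5% of all such genes were higher. The chaperone pair Hspb8 and Bag3 rose 1.77-fold and 2.13-fold.

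Many peroxisomal genes fell by small steps, and mitochondrial oxidation genes were called lower in numbers that depended on the arrays used. Of 36 peroxisome genes, 20 were lower and none higher (55.6% against 27.9% of genes with a mean above log2 9), with a median of -0.28. In all 3 fits 8 were lower and without the pancreas-bearing arrays 7, against 8.62% and 8.75% of all genes. Crat, carnitine acetyltransferase, measured 9.97, 9.41, 9.96 and 10.00 untreated and 9.09, 9.08, 8.87 and 9.11 after LPS and fell by 0.80 ± 0.12 (adjusted p = 0.000245). Amacr, the racemase of branched fatty acids, measured 11.51, 11.55, 11.60 and 11.90 and 10.96, 10.87, 11.03 and 11.08 and fell by 0.66 ± 0.09 (adjusted p = 0.000181). The groups were separate in both. Pex14, the docking protein of matrix import, fell by 0.41 and Pex16, of membrane assembly, by 0.36. Acot4, a succinyl-CoA thioesterase, gave 7.98, 9.28, 8.47 and 9.86 untreated and 7.37, 7.01, 7.18 and 7.41 after LPS, again with untreated arrays 2 and 4 high.

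Of 22 genes of mitochondrial fatty acid oxidation and ketone synthesis, 12 were lower and none higher (54.5%), with a median of -0.20. Of these 12, 2 were lower in all 3 fits, where 8.62% of all genes were. Without the pancreas-bearing arrays 2 of the 22 were lower, against 8.75% of all genes. Both counts lie near the shares over all genes, so the count of 12 depended on the fit. Without untreated arrays 2 and 4 it was 6. The list's median was -0.22 without untreated arrays 1 and 3, -0.18 without arrays 2 and 4 and -0.19 in the pancreas-free fit. These fits hold fewer arrays, and the part of array number in the lower counts was not tested. Hadh, an oxidation dehydrogenase, fell by 0.36 ± 0.07 (adjusted p = 0.00212), the carnitine shuttle Slc25a20 by 0.46, Hadhb by 0.41 and Decr1 by 0.38 on the log2 scale. Without the pancreas-bearing arrays these last 3 gave -0.45, -0.34 and -0.33 (adjusted p = 0.0547, 0.0756 and 0.12). Of 20 Krebs cycle genes, 8 were lower and 1 higher (median -0.13), with 1 in each direction in all 3 fits, and 3 to 5 were lower when any array other than LPS array 1 was left out. Citrate synthase (Cs) measured 10.98, 10.80, 10.89 and 10.92 untreated and 10.64, 10.43, 10.44 and 10.39 after LPS and fell 1.34-fold (adjusted p = 0.000391), while fumarase (Fh1) rose 1.27-fold. The isocitrate dehydrogenase subunit Idh3a fell 1.46-fold, and by 0.49 without the pancreas-bearing arrays (adjusted p = 0.0763).

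Of 50 respiratory chain subunits, 18 were lower and none higher (36%, median -0.17), 5 of them in all 3 fits and 5 without the pancreas-bearing arrays. These last counts stood against 8.62% and 8.75% of all genes. Ndufa6, of complex I, fell by 0.49 ± 0.06 and Atp5h, of the ATP synthase, by 0.43 ± 0.06. Of 45 mitochondrial ribosomal proteins, 18 were lower and 1 higher (40%, median -0.18), and 8 lower without the pancreas-bearing arrays. Mrpl49 fell by 0.63, Mrpl34 by 0.53, Mrpl15 by 0.57 and Mrps5 by 0.43, and Mrpl30 rose by 0.41. Genes with a mean above log2 9, of which 27.9% were lower in general, made up 20 of the 22 fatty acid oxidation genes, 19 of the 20 Krebs cycle genes, 46 of the 50 respiratory chain subunits and 24 of the 45 mitochondrial ribosomal proteins.

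Sugar metabolism moved apart within the pathway. Of 19 glycolysis genes, 7 were higher and 6 lower, with 6 and 4 of them in all 3 fits and a median of -0.03. Pfkfb3, which makes the activator of phosphofructokinase, measured 6.92, 9.03, 6.74 and 9.30 untreated and 9.89, 9.78, 9.87 and 10.34 after LPS, a 3.93-fold rise (adjusted p = 0.0109). The LPS arrays were above all untreated ones, but untreated arrays 2 and 4 lay more than 2 log2 units above arrays 1 and 3, and without the pancreas-bearing arrays Pfkfb3 gave 2.12 (adjusted p = 0.0679). The lysosomal hexose carrier Slc2a6 measured 7.20, 6.95, 7.00 and 6.54 and 8.70, 8.39, 8.51 and 8.68 (3.14-fold, adjusted p = 1.24e-06). The isozymes Pfkp (1.72-fold), Hk2 (1.40-fold) and Ldha (1.60-fold) rose, whereas Pfkm (1.90-fold) and Tpi1 (1.40-fold) fell. Of 28 hypoxia targets, which include some of these genes, 5 were higher and 9 lower, 3 of them lower in the pancreas-free fit.

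Of 16 gluconeogenesis and glycogen genes, 1 was higher and 5 lower (median -0.35), or 2 to 3 lower without untreated array 4 or LPS array 2 or 4, and none higher and 1 lower in the pancreas-free fit. Pck1, which commits carbon to glucose, rose by 0.50 (adjusted p = 0.0166), but only by 0.20 against untreated arrays 2 and 4 (adjusted p = 0.0951), and the glycogen kinase subunit Phka2 fell by 0.74. Of 19 insulin signalling genes, 2 were higher (1 or none without untreated array 1 or 3 or LPS array 1, 2 or 3) and 5 lower, or none and 3 in the pancreas-free fit, Irs1 and the transcriptional regulator Tsc22d1 (2.12-fold) being the clearest.

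Transcripts of NAD synthesis enzymes changed in both directions. Nampt, the salvage enzyme that starts from nicotinamide, measured 9.42, 10.48, 9.35 and 10.34 untreated and 11.20, 11.11, 11.03 and 11.20 after LPS, a 2.36-fold rise (adjusted p = 0.000916). Nmrk1, the kinase that starts from nicotinamide riboside, measured 8.71, 9.78, 8.70 and 9.80 and 8.14, 7.12, 7.96 and 7.84, a 2.79-fold fall (adjusted p = 0.0017). Both groups were separate, and both genes were higher on untreated arrays 2 and 4 than on 1 and 3. The kinase Nadk rose by 0.31, and Afmid, of the de novo route, fell by 0.75. In all, 4 of 22 genes of NAD and kynurenine metabolism were higher and 7 lower (median -0.16), 4 lower in the pancreas-free fit.

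**Figure D3:**
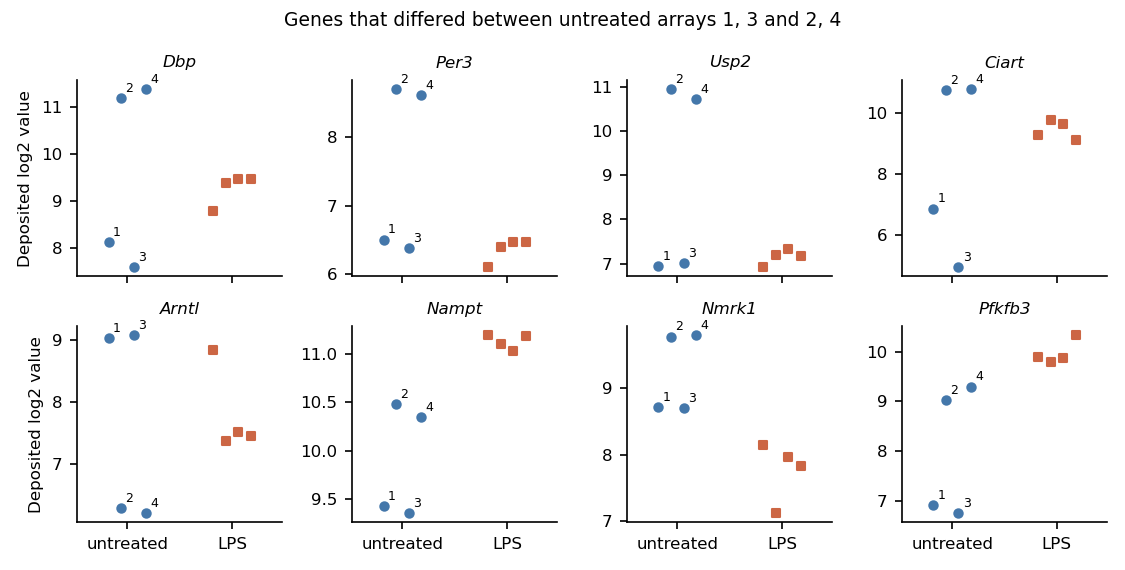
Deposited log2 values of 8 genes on each WT array, untreated (blue circles, numbered 1 to 4) and LPS (red squares). Untreated arrays 1 and 3 lie apart from 2 and 4 for each gene, in the same way for Nampt, Nmrk1 and Pfkfb3 as for Dbp, Per3 and Usp2, and the other way round for Arntl.

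The clock genes themselves gave 2 higher and 4 lower of 19, with 1 in each direction in all 3 fits and none higher and 2 lower in the pancreas-free fit. The higher count was 1 or none without any of 6 arrays, untreated array 1 and LPS array 4 being the exceptions. Cry1, a core repressor, fell by 0.62 ± 0.11 with separate groups. Nfil3, a repressor of D-box genes, measured 9.04, 7.75, 9.04 and 7.61 untreated and 9.79, 9.28, 9.40 and 9.15 after LPS, and against untreated arrays 1 and 3 alone it gave 0.37 (adjusted p = 0.277). It also lost the call when untreated array 2 or 4 or LPS array 1 or 3 was left out (0.80 to 1.05), with array weights (0.69), with the 8 WT arrays alone (1.05) and without the arrays that held pancreas transcripts (1.11). The lower count was 7 without untreated array 1 or 3 and 2 without untreated array 2. Per3 was low on all LPS arrays (6.09 to 6.46) and on untreated arrays 1 and 3, and was not called (-1.20, adjusted p = 0.0735). Without untreated array 1 it gave -1.54 (adjusted p = 0.021), without untreated array 3 -1.59 (adjusted p = 0.0143), and with dim genes left out its adjusted p was 0.0495.

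Nucleotide and one-carbon genes also parted. Of 24 pyrimidine genes, 5 were higher and 8 lower (median -0.08), 4 lower in the pancreas-free fit. Upp1, uridine phosphorylase, measured 6.65, 7.14, 6.36 and 6.83 untreated and 9.64, 8.88, 8.49 and 8.74 after LPS, a 4.58-fold rise (adjusted p = 8.75e-06), and the mitochondrial nucleotide kinase Cmpk2, an interferon target, rose 31.8-fold. The thymidine kinase Tk1, of dividing cells, fell 2.03-fold and the uridine kinase Uck1 1.47-fold. Of 24 purine genes, 3 were higher and 8 lower, 4 lower in the pancreas-free fit. Xdh, which makes uric acid and superoxide, measured 10.66, 10.68, 10.71 and 10.60 and 12.27, 12.12, 11.98 and 12.06, a 2.73-fold rise (adjusted p = 6.75e-09) with separate groups, and Pnp, which feeds it, rose 2.68-fold. The nucleotide receptor P2ry4 fell 2.88-fold.

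Of 21 methionine, glycine and one-carbon genes, 9 were lower and 1 higher (42.9% lower, median -0.04), 6 of the 9 in all 3 fits and 4 without the pancreas-bearing arrays. Mthfd2, the mitochondrial folate enzyme of growing and activated cells, measured 6.91, 6.12, 6.78 and 6.49 untreated and 8.35, 7.75, 8.31 and 8.52 after LPS, a 3.16-fold rise (adjusted p = 2.85e-05). The serine enzymes Shmt1 and Shmt2 fell by 0.56 and 0.46, the choline dehydrogenase Chdh by 0.56 and the glycine cleavage protein Gcsh by 0.54. Growth arrest genes split: Gadd45b measured 6.81, 7.21, 6.48 and 6.70 and 9.19, 9.09, 9.04 and 9.25 (5.08-fold), while the inhibitor Cdkn2c fell 1.82-fold, among 5 higher and 4 lower of 18.

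Of 38 genes of amino acid catabolism, 37 with a mean above log2 9, 13 were lower and 1 higher (34.2% against 27.9% lower among all such genes, median -0.15). In all 3 fits 6 were lower, and 6 also in the pancreas-free fit. Bcat2, of branched-chain amino acids, fell by 0.67 and Prodh2 fell by 0.44. Of 12 urea cycle and ammonia genes, 3 were lower and none higher (25% lower, median -0.04). All 12 had a mean above log2 9, and 27.9% of all such genes were lower. Car5a, the mitochondrial carbonic anhydrase that supplies bicarbonate, measured 10.54, 10.62, 10.60 and 10.80 untreated and 9.32, 9.05, 9.66 and 9.41 after LPS (2.43-fold lower, adjusted p = 2.73e-05), and Aqp9 fell by 0.46. Of 27 amino acid transporters, 7 were higher and 8 lower, 4 lower in the pancreas-free fit. Slc6a6, the taurine carrier, measured 10.49, 10.45, 10.70 and 10.78 and 12.14, 12.05, 11.67 and 11.91 (2.53-fold), and Slc43a2, a carrier of large neutral amino acids, fell 1.80-fold. Of 9 polyamine genes, 2 were lower (1 in the pancreas-free fit), among them the acetyltransferase-like Sat2 by 0.84.

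Of 13 genes of itaconate, nitric oxide and tetrahydrobiopterin, 3 were higher and 3 lower, 1 lower in the pancreas-free fit. Besides Acod1, the inducible nitric oxide synthase Nos2 measured 5.80, 5.69, 5.91 and 5.34 untreated and 7.28, 7.09, 6.74 and 7.67 after LPS, a 2.85-fold rise (adjusted p = 0.000118).

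**Figure D4:**
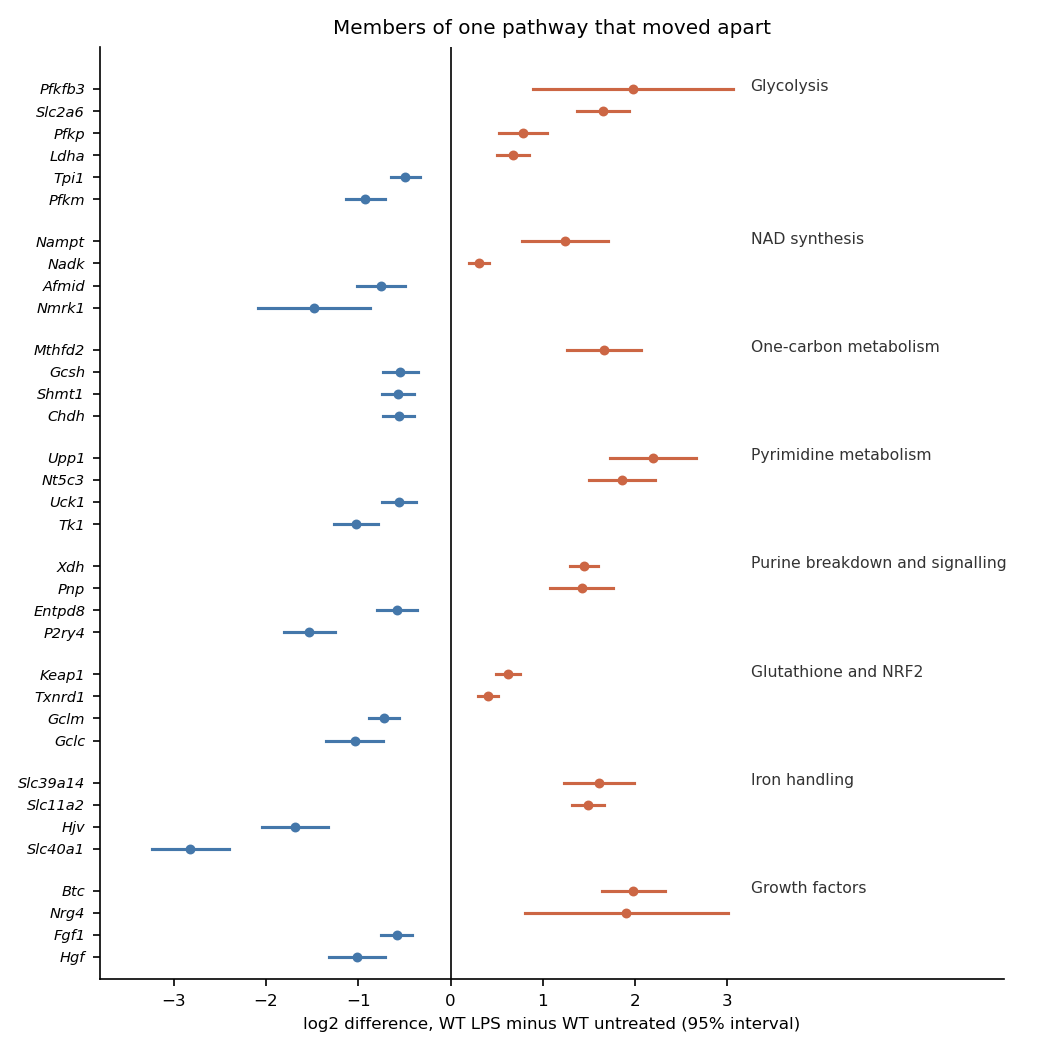
log2 differences (WT LPS minus WT untreated, points) with limma's 95% intervals (lines) for called genes of 8 pathways, chosen after their values were seen to show members that moved in opposite directions. Red marks higher and blue lower after LPS; Pfkfb3 and Nrg4 have the widest intervals.

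Conjugating transferases and glutathione S-transferases held falls and no rises. Of 24 glucuronosyl, sulfo- and other conjugating transferases, 11 were lower and none higher (45.8%, median -0.37), 7 of them in all 3 fits and 6 without the pancreas-bearing arrays. Inmt, a methyltransferase of indoleamines, measured 12.91, 13.16, 12.84 and 13.12 untreated and 12.45, 12.11, 12.47 and 12.25 after LPS (adjusted p = 0.000163). Ugt2b35 fell 2.16-fold, the glycine conjugase Glyat 2.06-fold and Ugt2b5 1.53-fold, though Ugt2b genes are near copies whose probes may share signal. Of 19 glutathione S-transferases, 9 were lower and none higher (47.4%, median -0.23). Of these 9, 5 were lower in all 3 fits, and 5 members were lower without LPS array 4 and 3 without the pancreas-bearing arrays. Bright members, with a mean above log2 9, made up 17 of the 24 conjugating transferases and 15 of these 19. Among all such genes 27.9% were lower. Over all genes, 8.62% were lower in all 3 fits and 8.75% without the pancreas-bearing arrays. Gstp1 fell by 0.39, Gstz1 by 0.39 and Gstm5 by 0.77. The NRF2 list of antioxidant targets split, with 7 of 22 higher and 6 lower. Gclm, the modifier subunit of the enzyme that limits glutathione synthesis, measured 12.21, 12.00, 12.33 and 12.31 untreated and 11.54, 11.40, 11.49 and 11.57 after LPS, and the catalytic subunit Gclc fell 2.05-fold. Keap1, the brake on NRF2, rose 1.54-fold and the thioredoxin reductase Txnrd1 1.32-fold.

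Of 24 superoxide, peroxide and selenoprotein genes, 5 were higher and 9 lower, and in the pancreas-free fit 5 were higher and 1 lower, with 5 and 2 in all 3 fits. The phagocyte oxidase subunit Cybb rose 2.37-fold and the mitochondrial dismutase Sod2 1.41-fold. Of 21 thyroid and steroid genes, 8 were lower and none higher (38.1%, median -0.42), 6 in all 3 fits. Hsd3b5, the male-specific liver dehydrogenase, measured 12.65, 12.49, 12.46 and 12.73 untreated and 10.93, 10.74, 11.35 and 11.19 after LPS (2.89-fold lower, adjusted p = 7.29e-07). Of 29 growth hormone axis and male-biased genes, which include Hsd3b5, 10 were lower and 2 higher (1 higher without untreated array 2 and in the pancreas-free fit), and Cyp2u1 fell 2.66-fold. Of 23 retinoid genes, 9 were lower and none higher (39.1%), among them the receptor Rarb by 0.91 and the carotenoid oxygenase Bco2 by 0.75.

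Lipid storage and signalling gave mixed lists. Of 24 lipid droplet genes, 7 were lower (2 in the pancreas-free fit) and 1 higher (2 to 3 without untreated array 2 or 4 or LPS array 4): G0s2, which inhibits fat lipase, measured 9.79, 10.03, 9.44 and 8.44 untreated and 7.63, 7.91, 7.91 and 7.77 after LPS, and Cideb fell by 0.25. Of 28 lipoprotein genes, 3 were higher and 7 lower (4 lower without untreated array 2, 1 higher and 3 lower in the pancreas-free fit), with the cholesterol exporter Abca1 up 1.99-fold and the sorting receptor Sort1 down 2.39-fold. Of 26 sphingolipid genes, 7 were higher and 6 lower, or 4 and 3 in the pancreas-free fit. The serine palmitoyltransferase subunit Sptlc2, at the entry of ceramide synthesis, measured 9.77, 9.45, 9.80 and 9.59 and 10.74, 10.35, 10.43 and 10.49 (1.80-fold, adjusted p = 6.48e-05), the ceramide synthase Cers6 rose 3.28-fold and the ceramidase Acer2 2.14-fold. Of 32 eicosanoid and phospholipase genes, 3 were higher and 9 lower, or 5 to 6 higher without untreated array 1 or LPS array 1. Lpcat3, which builds arachidonate into phospholipids, fell 2.30-fold and the lysosomal lipase Pla2g15 2.12-fold.

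Many lysosome and autophagy genes fell. Of 33 lysosome genes, 15 were lower and none higher (45.5%, median -0.22). In all 3 fits 8 were lower and without the pancreas-bearing arrays 9, against 8.62% and 8.75% of all genes. Bright members, with a mean above log2 9, made up 21 of these 33 and 16 of the 33 autophagy genes below. Among all such genes 27.9% were lower. The sialidase Neu1 measured 8.91, 9.07, 9.08 and 9.25 untreated and 8.45, 8.31, 8.42 and 8.45 after LPS and fell by 0.67 ± 0.08 (adjusted p = 3.79e-05). The acid lipase Lipa measured 11.57, 11.45, 11.77 and 11.77 and 11.21, 10.89, 10.96 and 11.01 and fell by 0.62 ± 0.09. The groups were separate for both, and Manba and Glb1, glycosidases, fell by 0.72 and 0.58, and the proteases Ctsd and Ctsa, whose promoters are printed above, by 0.27 and 0.28. Of 33 autophagy genes, 14 were lower and 2 higher (42.4%, median -0.32), 7 and 2 in all 3 fits, with 4 higher without untreated array 4 or LPS array 2, and 6 and 2 without the pancreas-bearing arrays. Atg101, of the initiating kinase complex, measured 8.83, 8.79, 8.84 and 8.68 untreated and 7.92, 7.88, 7.97 and 7.98 after LPS (1.80-fold lower, adjusted p = 1.26e-06). Tfeb, the transcription factor of lysosome genes, fell by 0.55, Map1lc3a by 0.56 and Atg9a by 0.47, whereas Atg16l2 rose 2.18-fold.

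Iron genes changed in both directions. Of 30 heme and iron genes, 5 were higher and 12 lower (40% lower against 27.9% of genes with a mean above log2 9, which 22 of the 30 have, median -0.22). In all 3 fits 5 were higher and 6 lower, and in the pancreas-free fit 5 and 5. Slc11a2, a divalent metal importer, measured 8.70, 8.49, 8.74 and 8.49 untreated and 10.14, 10.14, 10.08 and 10.01 after LPS, a 2.81-fold rise (adjusted p = 2.71e-08). Hjv, the coreceptor that drives hepcidin, measured 11.29, 10.77, 11.32 and 10.85 and 9.69, 9.09, 9.38 and 9.33, a 3.21-fold fall (adjusted p = 1.01e-05). Ftl1, the ferritin light chain, fell by 0.30, and the heme carrier Slc48a1 by 0.51. Of 31 other solute carriers of hepatocytes, 5 were higher and 10 lower, with the sugar phosphate carrier Slc37a1 up 3.64-fold.

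Most called genes of vascular growth signalling fell. Of 29 VEGF, angiopoietin and ephrin genes, 13 were lower and 3 higher (5 higher without untreated array 1; 44.8% lower, median -0.16), 10 of the 13 in all 3 fits and 12 without the pancreas-bearing arrays. The VEGF receptor Kdr fell 3.00-fold, the angiopoietin receptor Tek 2.60-fold and the lymphatic-type receptor Flt4 1.79-fold, and the semaphorin Sema6a fell by 0.69. Angpt2, the antagonist of Tek signalling, measured 6.11, 5.96, 6.09 and 5.87 untreated and 7.26, 6.75, 6.79 and 7.00 after LPS, a 1.93-fold rise (adjusted p = 0.000346). Sinusoidal markers moved alongside: 10 of 15 were lower and 1 higher, 3 of them shared with this list, and the list mean was 9.37 to 9.50 untreated and 8.61 to 9.06 after LPS. The part of cell number in these falls was not tested.

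Wnt2, an endothelial Wnt ligand, measured 7.25, 7.33, 7.15 and 7.24 untreated and 6.29, 6.46, 6.38 and 6.25 after LPS (1.86-fold lower, adjusted p = 7.06e-06), and the receptor Fzd4 fell 2.46-fold, among 6 lower and none higher of 26 Wnt signalling genes (23.1% against 15.6% of all genes, 3 lower in the pancreas-free fit). Of 26 pericentral hepatocyte and Wnt target genes, 19 with a mean above log2 9, 6 were lower and 1 higher (23.1% lower, below the 27.9% of all genes that bright), and none was higher when any array but LPS array 3 was left out: the receptor Lgr5 measured 7.75, 8.17, 7.58 and 8.46 and 6.41, 6.26, 6.46 and 6.51 (2.98-fold lower), and the feedback inhibitors Nkd1 and Notum fell 1.84-fold and 1.92-fold. The pericentral marker Glul gave -0.16 ± 0.10 (adjusted p = 0.294) and the Wnt target Axin2 -0.14 ± 0.14 (adjusted p = 0.497), neither of them called.

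Of 45 BMP, activin and TGF-beta genes, 15 were lower and 4 higher (33.3%, median -0.13), with 6 lower in all 3 fits and 8 in the pancreas-free fit. Bmp5 measured 8.49, 8.68, 8.50 and 8.80 untreated and 7.64, 7.18, 7.55 and 7.64 after LPS (2.17-fold lower, adjusted p = 5.71e-06). The coreceptor Eng fell by 0.59 and Gdf2 (BMP9), a ligand made by stellate cells, 2.11-fold, while the activin chain Inhbb rose 1.99-fold. Of 28 ErbB, HGF and FGF genes, 5 were higher (3 in the pancreas-free fit) and 9 lower. The ErbB ligand Btc measured 6.68, 6.17, 6.58 and 6.16 untreated and 8.72, 8.41, 8.09 and 8.28 after LPS, a 3.95-fold rise (adjusted p = 1.35e-06). Nrg4 measured 6.25, 9.03, 6.54 and 8.57 and 9.37, 9.17, 9.82 and 9.65, also above all untreated arrays, of which 2 and 4 lay more than 2 log2 units above 1 and 3, and without the pancreas-bearing arrays it gave 1.91 (adjusted p = 0.0989). Hgf fell 2.02-fold, Fgfr4, the FGF15 receptor, 1.61-fold and its partner Klb 2.48-fold. Of 23 Notch genes, 1 was higher (2 without untreated array 4 or LPS array 2) and 6 lower (3 without untreated array 2 and in the pancreas-free fit), Hes6 2.06-fold and Notch2 1.38-fold, and of 25 phosphatase and Sprouty genes 4 were higher and 7 lower, with Dusp12 and Spry1 down by 0.50 and 0.57.

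More cytoskeletal genes rose than fell. Of 34 actin and tubulin genes, 14 were higher and 3 lower (41.2% higher, median 0.16). Their bright members, with a mean above log2 9, numbered 19, and 17.5% of all such genes were higher. In all 3 fits 13 of the 14 and none of the 3 were called, and none was lower in the pancreas-free fit. Tubb6 measured 7.84, 7.51, 7.39 and 7.08 untreated and 9.15, 9.06, 9.27 and 9.50 after LPS, a 3.45-fold rise (adjusted p = 4.75e-06). Msn, the membrane-actin linker of leukocytes and endothelium, measured 8.91, 8.82, 9.03 and 8.95 and 10.20, 9.72, 9.91 and 9.94, a 2.02-fold rise (adjusted p = 3.81e-06), and its relative Ezr rose 1.62-fold. The groups were separate for these genes, and 14 members were higher without the pancreas-bearing arrays. Neutrophil markers moved with this list: 14 of 16 were higher and the list mean was 5.82 to 6.07 untreated and 7.11 to 7.33 after LPS. Their part in the rise of Plek and Msn, which leukocytes express, was not tested.

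Of 46 matrix genes, 11 were higher and 11 lower, with 6 to 7 lower without untreated array 1 or 3 or LPS array 2, 3 or 4 and 5 lower in the pancreas-free fit. Thbs1, which binds latent TGF-beta, measured 6.32, 6.14, 6.31 and 6.08 untreated and 8.44, 8.18, 8.25 and 8.27 after LPS, and the crosslinking enzyme Tgm2 10.24, 9.69, 10.14 and 9.79 and 11.84, 11.83, 11.92 and 11.96, rises of 4.20-fold and 3.79-fold with separate groups. Lum, a stromal proteoglycan, fell 1.85-fold. Of 31 junction genes, 6 were higher and 11 lower, 6 lower in the pancreas-free fit. The desmosomal plakin Dsp measured 9.40, 9.43, 9.61 and 9.47 and 8.46, 8.10, 8.43 and 8.20 (2.27-fold lower, adjusted p = 1.46e-06), and Gjb1, the main hepatocyte connexin, fell by 0.60, while the vascular connexin Gja4 rose by 0.73.

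Of 29 secreted hepatocyte proteins outside the acute phase, 13 were lower and 2 higher (44.8% lower, median -0.18). Bright members, with a mean above log2 9, numbered 27, and 27.9% of all such genes were lower. The lower count was 8 without untreated array 4, LPS array 1 or LPS array 2, and 4 without the pancreas-bearing arrays. Serpina7, the thyroxine-binding globulin, measured 9.13, 9.40, 8.53 and 9.89 untreated and 11.08, 10.56, 11.15 and 10.71 after LPS, a 3.10-fold rise (adjusted p = 0.000476). Bche fell by 0.80, Ces1d by 0.79 and Igfals, which holds IGF1 in plasma, by 0.68. Of 28 hepatocyte transcription factors, 5 were higher and 11 lower (39.3%), or 3 and 7 in the pancreas-free fit. The coactivator Ppargc1b fell 2.04-fold, and the retinoid receptor Rxrg measured 8.53, 7.42, 8.61 and 7.76 untreated and 9.85, 9.78, 9.20 and 9.39 after LPS.

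Messenger RNA decay, chromatin and immediate early lists were mixed. Dcp2, the decapping enzyme, rose 4.43-fold and the exonuclease Xrn1 1.81-fold, among 4 higher and 5 lower of 34 (7 higher and 3 lower without LPS array 2, 5 and 1 in the pancreas-free fit). Of 42 chromatin genes, 8 were higher and 14 lower (8 lower in the pancreas-free fit), with the deacetylase Hdac11 measuring 8.94, 8.95, 9.09 and 9.19 untreated and 7.98, 8.10, 8.04 and 7.88 after LPS and Arid5a up 1.86-fold. Of 33 immediate early genes, 9 were higher and 1 lower (2 lower without untreated array 1, 3 or 4 or LPS array 2): Batf2 rose 1.92-fold and Ccn2 2.59-fold. Of 33 scavenger receptors, 7 were higher and 11 lower, and Scara5, the ferritin receptor, measured 7.52, 7.19, 7.04 and 6.76 and 9.17, 8.80, 9.27 and 9.17, with Olr1 up 2.20-fold.

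Cell type markers give the setting of these values. Besides neutrophils, 5 of 7 monocyte markers were higher and none lower, Ms4a4c 4.31-fold and Vcan 2.90-fold, and the list mean was 6.58 to 6.71 untreated and 7.40 to 7.89 after LPS. The neutrophil genes Retnlg and S100a9 rose 4.42-fold and 3.42-fold. Of 14 Kupffer markers, 1 was higher (2 without untreated array 4 or LPS array 2, 3 in the pancreas-free fit) and 5 lower, and the list mean was 8.73 to 9.13 untreated and 8.13 to 8.70 after LPS. The iron exporter Slc40a1, which is also on this list, fell 7.05-fold, and Marco, a scavenger receptor, rose 2.64-fold. Of 12 natural killer markers, 3 were higher, Gzmb 1.94-fold and Gzma by 0.47. Of 9 platelet markers, 3 were higher and 1 lower, Itgb3 2.35-fold up and Clec1b 1.81-fold down.

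No T cell marker of 11 was called: Cd4 gave -0.24 ± 0.10 and Cd28 0.12 ± 0.06. Of 10 B cell markers 1 was lower, Cd79b by 0.55, and Cd79a gave -0.31 (adjusted p = 0.0634). Of 12 dendritic markers 1 was higher and 1 lower (2 lower without untreated array 3, none without LPS array 1, 3 or 4), and Fscn1 rose by 0.88. Of 10 mast cell markers 1 was higher and 1 lower, none of them in the pancreas-free fit, and none was higher without untreated array 4 or LPS array 2 or 4. Of 14 stellate and fibroblast markers, 6 were lower and 1 higher, Hgf lower and Ngfr up by 0.58. Of 14 other endothelial markers, 7 were lower and 3 higher (median -0.26), with Eng down by 0.59 and Cd93 up 2.48-fold.

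Markers of the duct, surface and blood precursors moved little. Of 11 cholangiocyte markers 1 was higher (2 without untreated array 1, none without untreated array 2 or 4 or LPS array 1) and 1 lower, with Pkhd1 down by 0.58. Of 8 mesothelial, 8 red cell precursor and 9 adipocyte markers 2 each were lower and none higher, and 1 each in the pancreas-free fit, as also without 1 or more single arrays, and Pparg fell by 0.67. Of 23 pancreas markers 1 was called, and none without untreated array 1, 3 or 4 or LPS array 1, 3 or 4, and Ctrl gave 1.44 ± 0.71, with LPS array 2 the highest (7.17, 9.79, 7.46 and 6.46 on LPS arrays 1 to 4). Of 13 hepatocyte markers, 3 were higher and 2 lower (1 lower without untreated array 4 or LPS array 2, 3 or 4, none in the pancreas-free fit), and Fga, a fibrinogen chain, rose 1.96-fold and the regulator Hnf4a by 0.38.

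**Figure D5:**
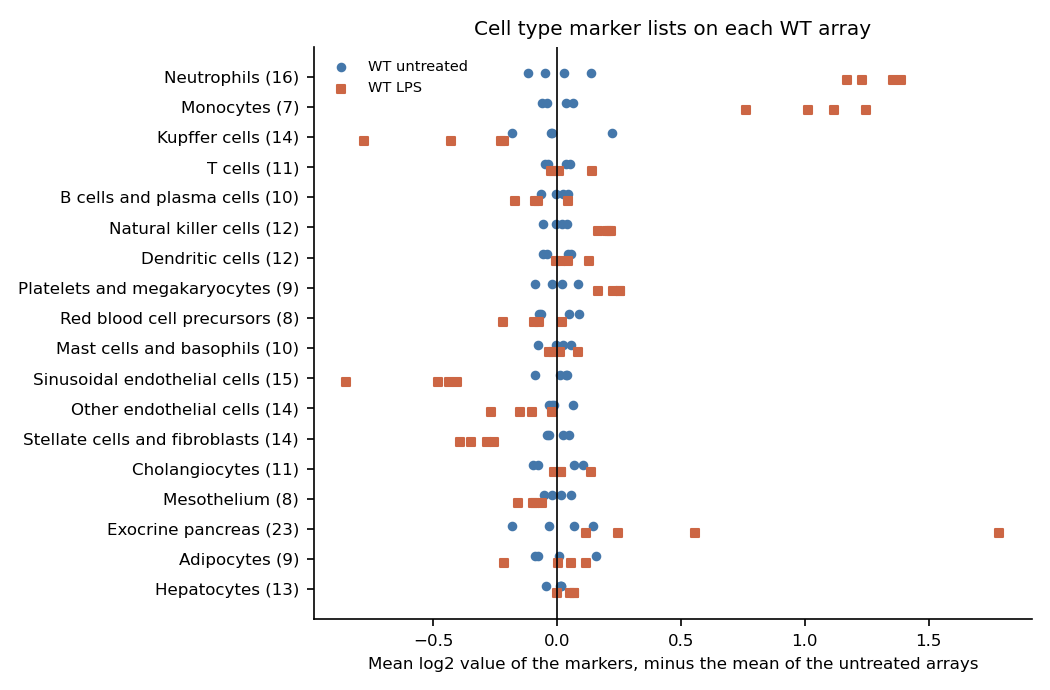
Mean log2 value of each cell type marker list on each WT array, minus the mean of the untreated arrays, for untreated (blue circles) and LPS (red squares) arrays; the number of measured markers is in brackets. Neutrophil, monocyte, natural killer and platelet means lie above all untreated arrays. Sinusoidal, stellate, Kupffer and mesothelium means lie below them, and the pancreas mean is far above the rest on LPS array 2.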

How the data were processed

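Liver RNA was measured on 12 Affymetrix arrays in 3 groups of 4. The deposited log2 values were made by the authors with RMA, per the submitters' processing notes; its version and the genome build were not given in the sources used here. They ran from 3.43 to 14.48, with array medians of 6.15 to 6.32, and precision is limited by having 4 arrays a group.

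Of 35556 probe sets, 21789 had 1 gene symbol, 1621 several and 12146 none; the last 2 kinds were left out. For the 999 genes with several probe sets, the one with the highest mean was kept, which left 19938 genes. limma 3.58.1 in R 4.3.3 (lmFit, eBayes) was fitted to all 12 arrays by group, with 9 residual and 3.54 prior degrees of freedom. Tests were two-sided, with Benjamini-Hochberg adjustment over all 19938 genes and a call at an adjusted p under 0.05. Fold changes are 2 to the power of the log2 difference. The fit was checked on simulated data.

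Called genes were counted over 86 lists (65 programmes, 18 cell types, 3 set aside). Genes named were the 15 largest rises and 15 largest falls with separate groups outside the set-aside lists and families, the 4 with the smallest p of lists called at 40% or more in 1 direction, and the 2 with the smallest p of other lists. Members whose call was lost when 1 array was left out were not named unless their values are given, and further members were named after their values were seen. The groups and lists were chosen with earlier results of these data known. Alternatives covered thresholds, dim genes, probe sets, eBayes settings, array weights, scaling and the arrays used. Same-numbered untreated and LPS arrays did not deviate together. Promoters came from RefSeq GRCm38.p6.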

Additional observations from a re-analysis of the deposited data

Results flagged for a closer look

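Values are named here where 1 array of 4 lay far from the other 3, its gap to the nearest array, as a share of the group's range, being past Dixon's 95% critical value. The numbers are that share. This held in 32 of 492 groups (6.5%), and chance gives about 1 in 20.

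LPS array 2 accounted for 10 of them and was the low array in each: Retnlg 0.948, Kdr 0.881, Manba 0.875, Fzd4 0.866, Hadhb 0.853, Decr1 0.852, Hgf 0.849, Ddx21 0.844, Nop58 0.841 and Entpd8 0.836 of the range. This array also held the most exocrine pancreas transcript, and the part of that in these values was not tested. LPS array 1 was low for Gstp1 (0.939), Dbp (0.881), Cideb (0.875) and Txnrd1 (0.867) and high for Arntl (0.898) and Crybg1 (0.893). LPS array 3 was low for Crat (0.870), and LPS array 4 high for Igfals (0.8292).

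Untreated array 2 was low for Crat (0.942), the mean of the hepatocyte markers (0.933), Mrpl49 (0.869), Cd79b (0.848) and Glb1 (0.834) and high for Atp5h (0.930). Untreated array 3 was low for Prss8 (0.944), Gcsh (0.920) and Decr1 (0.858) and high for Rnf225 (0.832). Untreated array 1 was low for Fam13a (0.917), Slc10a6 (0.887) and Kars (0.882), and untreated array 4 was high for Ltv1 (0.919).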

How the results depend on the processing

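Leaving out each WT array in turn gave 1545 to 1964 higher and 2613 to 3148 lower genes, and 5 to 11 lower glutathione S-transferases, the 5 without LPS array 4. At an adjusted p under 0.01, 1223 genes were higher and 1920 lower, with 10 ribosome biogenesis genes higher and 3 fatty acid oxidation, 9 peroxisome, 4 glutathione S-transferase, 9 autophagy and 9 lysosome genes lower. With at least 1.5-fold asked for, 815 genes were higher and 1002 lower. At that size 8 ribosome biogenesis, 3 aminoacyl-tRNA synthetase and 9 cytoskeletal genes were higher. Those lower were 0 fatty acid oxidation (12 in limma without a fold limit), 5 peroxisome, 6 conjugating transferase, 2 glutathione S-transferase, 5 VEGF, 2 autophagy and 5 lysosome genes. With the 8 WT arrays only, 7 fatty acid oxidation and 9 lysosome genes were lower. Without the pancreas-bearing arrays 1745 genes were lower, among them 2 fatty acid oxidation, 7 peroxisome, 6 conjugating transferase, 3 glutathione S-transferase, 6 autophagy and 9 lysosome genes.

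A further pair of fits was chosen after seeing the data. Without untreated arrays 1 and 3, 10 ribosome biogenesis genes were higher. Without untreated arrays 2 and 4, 6 fatty acid oxidation, 12 peroxisome, 9 autophagy and 8 lysosome genes were lower. Clock genes changed sign: Ciart gave 1.11 with all arrays and -1.32 without untreated arrays 1 and 3, and without untreated arrays 2 and 4 Arntl went from 0.14 to -1.26 and Dbp from -0.29 to 1.42. The cause was not tested.

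With the replicate block, 1641 genes were higher and 2845 lower. Residuals of same-numbered untreated and LPS arrays correlated at -0.22, 0.04, -0.27 and 0.21, so the numbers were not taken as pairs. Median centring gave 1563 higher and 3102 lower genes and repeated quantile normalisation 2144 and 3153.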
